A study of Mus musculus with 42 samples.

Results

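The 9 genes described here belong to the interleukin-1 system: the ligands Il1a, Il1b, Il18 and Il33, the receptor antagonist Il1rn, the receptors Il1r1, Il1r2 and Il1rl1, and the shared receptor subunit Il1rap. They were chosen by name from a list of the family's best known members, and each gene was read from the probe set with its single symbol that had the highest mean over all arrays. In the annotation used, 8 of the 9 genes have such a probe set, among 18194 genes in all. Il1rl1, the receptor of interleukin-33, is not analysed here.

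Ligands of this family are alarm cytokines that switch on inflammatory genes within hours. IL-1α, IL-1β and the antagonist IL-1RN compete for IL-1R1, which signals only after it has joined IL-1RAP, while IL-1R2 is a decoy that binds the ligand and lacks a signalling domain. The signal runs through MYD88 and IRAK kinases to NF-κB. IL-1β and IL-18 are made as inactive precursors and cut by caspase-1 in the inflammasome. In the lung IL-33 is stored in the nuclei of epithelial cells, among them alveolar type II cells, and is set free when cells are damaged. IL-1β is known as a mediator of oxygen injury in the immature lung.

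RNA came from lung homogenates of single newborn mice, 1 mouse per array, in 14 groups of 3. Wild-type (WT, Nrf+/+) and knockout (KO, Nrf-/-) pups kept in room air gave groups on 4 successive days, named P1 (birth) to P4. Oxygen at 95% or more, given for 23 h a day from 24 h after birth, gave 3 further groups per genotype, sampled after 1 day (P2), 2 days (P3) or 3 days (P4). Air and oxygen groups are matched by the day number in their titles. With P1 as birth, the stated start leaves the exact age after each oxygen period unsettled. Foster dams nursed the litters of both arms. The labels give the knockout only as the loss of this gene, with no driver or cell type, and give neither strain nor litter. Values are log2 array intensities, so a difference of 1 is a 2-fold change. Values of different genes rest on different probes and are not set against each other.

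The targeted gene, Nfe2l2, which encodes the antioxidant regulator NRF2, bore out the labels. Its log2 value ran from 10.3 through a median of 10.8 to 11.6 in the 21 WT arrays and from 4.26 through 4.69 to 5.46 in the 21 KO arrays. The array medians lay between 6.31 and 6.40, and arrays of a group correlated at 0.959 to 0.997. Liver, heart, skeletal muscle or thymocyte genes were over 2 log2 units above their median in 17 arrays. These included all WT air arrays at P1 and P2, but no KO oxygen array and no KO air array at P1 or P4. Genotype is thus partly confounded with other tissues. For this reason each result below that ends without these 17 arrays, or with scores of these tissues in the model, is given with that value. That fit leaves 1 array each in WT air P3, WT oxygen P4, KO air P2 and KO air P3, and each lone array is assumed to vary like the other groups. In homogenised tissue a change in RNA per cell and a change in the number of cells of a type cannot be told apart.

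The stretches of DNA just ahead of the transcription starts are shown for 4 genes of the system. RefSeq promoters (assembly GRCm38.p6, 250 bases before each annotated start) were found for all 8 measured genes, 12 promoters in total. They were searched on both strands for an NF-κB site by its general consensus, for the AP-1 site TGANTCA, for a minimal antioxidant response element TGACNNNGC, the NRF2 site, and for the STAT site TTCCNGGAA. The matches are in capitals, and the 3 promoters with a match stand beside that of Il1b, which has none.
Il1b promoter, chr2:129371140-129371389, minus strand: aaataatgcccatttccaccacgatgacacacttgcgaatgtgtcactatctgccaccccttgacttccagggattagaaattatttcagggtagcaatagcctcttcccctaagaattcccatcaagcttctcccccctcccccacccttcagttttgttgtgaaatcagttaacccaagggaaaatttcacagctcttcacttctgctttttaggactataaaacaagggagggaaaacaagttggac
Il1a promoter, chr2:129309973-129310222, minus strand: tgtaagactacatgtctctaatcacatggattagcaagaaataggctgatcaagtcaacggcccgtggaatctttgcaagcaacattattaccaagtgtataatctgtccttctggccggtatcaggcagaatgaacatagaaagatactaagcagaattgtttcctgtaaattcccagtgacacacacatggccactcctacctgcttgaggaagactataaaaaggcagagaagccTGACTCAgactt
Il1rn promoter, chr2:24336610-24336859, plus strand: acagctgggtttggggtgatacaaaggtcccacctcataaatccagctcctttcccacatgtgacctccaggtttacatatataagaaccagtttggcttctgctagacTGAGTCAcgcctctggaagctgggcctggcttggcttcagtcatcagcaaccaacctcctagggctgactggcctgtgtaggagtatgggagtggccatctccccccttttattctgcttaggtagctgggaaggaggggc
Il1r1 second promoter, chr1:40266336-40266585, plus strand: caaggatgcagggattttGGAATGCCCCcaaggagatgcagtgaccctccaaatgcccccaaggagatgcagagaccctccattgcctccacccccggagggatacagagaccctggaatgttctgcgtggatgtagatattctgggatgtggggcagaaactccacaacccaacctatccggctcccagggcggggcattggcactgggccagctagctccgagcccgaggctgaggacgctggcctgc

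An AP-1 match stood in the Il1a promoter (TGACTCA, from position -12 counted from the start) and in 1 of the 3 Il1rn promoters (TGAGTCA, from position -141). The NF-κB consensus matched once, in the second Il1r1 promoter (GGAATGCCCC on the strand shown, from position -232). Of all 32851 promoters of this length, 6.75% held the AP-1 letters, 7.25% the NF-κB consensus, 10.2% the antioxidant element and 0.913% the STAT letters. The antioxidant element and the STAT letters were in 0 of the 12 promoters. The shares found among these genes are thus those of a handful of sequences, and a match in letters is a description only.

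**Figure D1:**
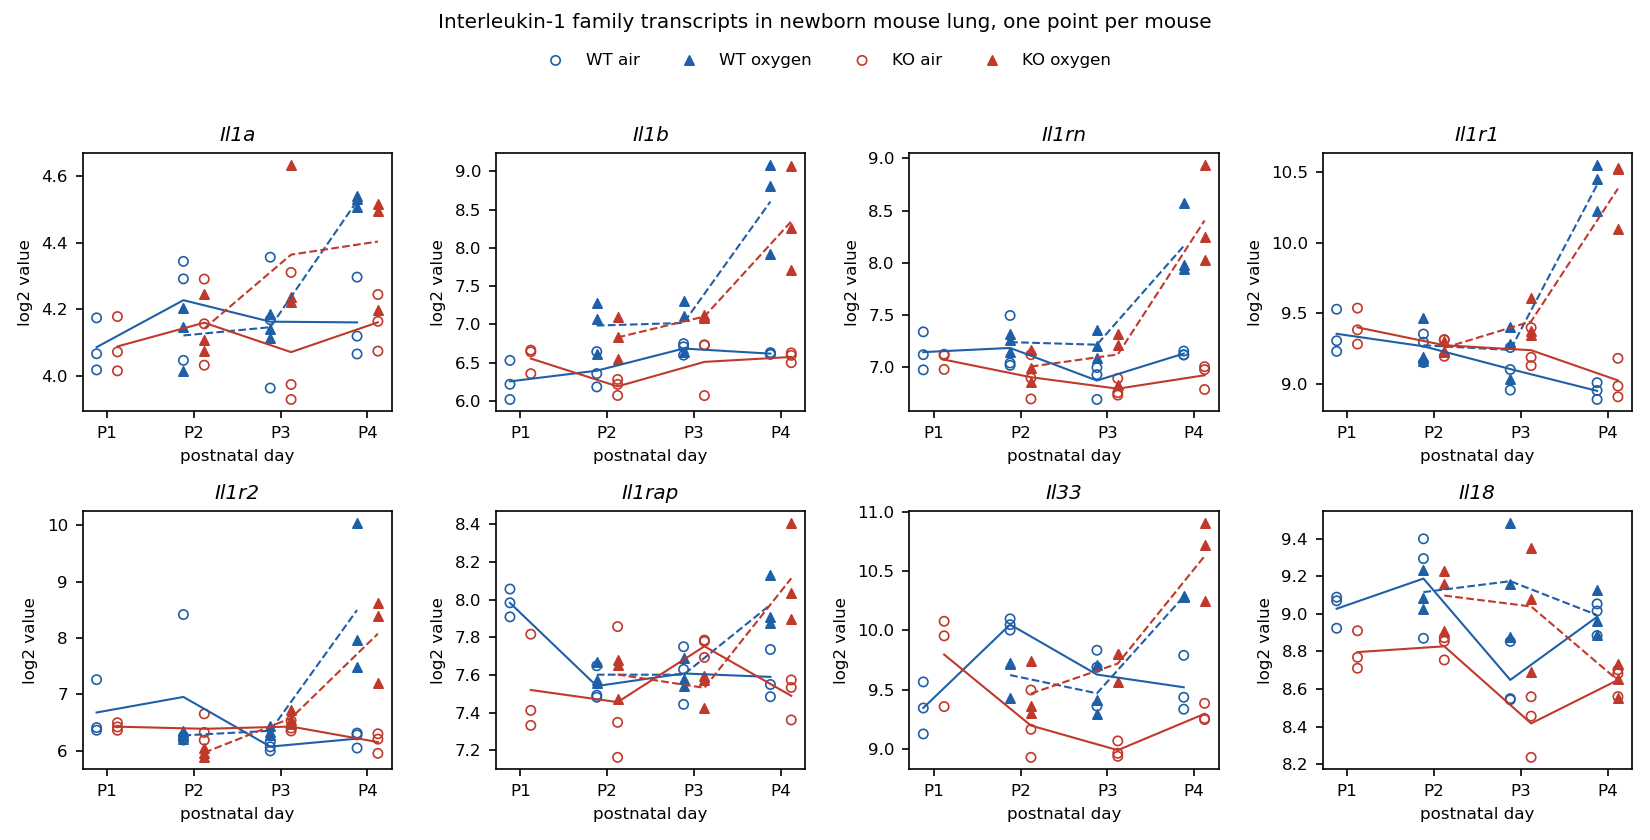
Log2 array value (vertical axis, a separate scale for each gene) of the 8 measured genes at P1 to P4, with WT in blue and KO in red, air as open circles and oxygen as filled triangles. Each point is 1 mouse and lines join the group means, solid for air and dashed for oxygen; in Il1b, Il1rn, Il1r1, Il1r2 and Il33 both P4 oxygen groups lie above the means of all 12 other groups.

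For 7 of the 8 genes the highest of the 14 group means was that of an oxygen group at P4. Il1b had its highest mean in WT (8.60 ± 0.61, SD, n = 3) and the next in KO (8.35 ± 0.69), and the other 12 groups lay between 6.19 and 7.10. Il1r1 was ordered alike, at 10.41 ± 0.17 in WT and 10.39 ± 0.25 in KO, with the other 12 groups from 8.95 to 9.44. In Il1r2 they stood at 8.50 ± 1.36 and 8.08 ± 0.76, above 5.97 to 6.95 elsewhere. In these 3 genes the step below the second group was the single one of the 13 steps between neighbouring groups that exceeded the pooled SD within groups (0.32, 0.15 and 0.56). Neighbours elsewhere in the order did not differ beyond their spread.

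In Il1rn and Il33 the KO oxygen group at P4 came first and the WT one second. Il1rn means were 8.40 ± 0.47 and 8.16 ± 0.35, and 6.80 to 7.24 in the other 12 groups. Il33 means were 10.63 ± 0.34 and 10.29 ± 0.01, followed by WT air at P2 (10.05 ± 0.05), KO air at P1 (9.80 ± 0.38) and KO oxygen at P3 (9.72 ± 0.14). The lowest Il33 means were those of KO air at P4, P2 and P3, at 9.30, 9.20 and 8.99. Below KO air at P1, no step between neighbouring Il33 groups exceeded the pooled SD of 0.22.

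The remaining genes spanned less. Il1a lay near the bottom of the arrays, at the 4.03rd percentile in the median array, and its group means ran from 4.07 to 4.53 with no step over the pooled SD of 0.14. At such a level a probe set follows its transcript poorly, so differences in Il1a are of uncertain size. Il1rap ran from 7.46 in KO air at P2 to 8.11 in KO oxygen at P4. Its step between WT oxygen at P4 and KO air at P3 alone exceeded the pooled SD of 0.17. Il18 ran from 8.42 in KO air at P3 to 9.19 in WT air at P2, and its highest groups were not those of 3 days of oxygen.

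The comparison of oxygen with air at the same age asks how the system responded to oxygen. After 3 days 7 of the 8 genes were higher in WT at an adjusted p under 0.05 (limma, Benjamini-Hochberg over all genes), and 6 of 8 in KO. Of all genes 15% were higher and 27.5% differed in either direction in WT, and 17% and 31.7% did so in KO. The median difference of the 8 genes was 0.90 in WT and 1.34 in KO on the log2 scale, beside -0.03 and 0.04 over all genes. All of the called genes had oxygen values above the highest air value of the same age and genotype. The share of all genes so separated was not counted, so this only describes the called genes.

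Il1b, the inducible ligand, stood at 6.61, 6.61 and 6.63 in the WT lungs in air at P4 and at 9.08, 7.92 and 8.81 after 3 days of oxygen. In KO it was at 6.63, 6.60 and 6.50 in air and at 8.26, 9.07 and 7.71 in oxygen. Air values thus hardly varied, while the oxygen lungs spread over more than 1 log2 unit in both genotypes. The difference was 1.99 ± 0.25 (SE) in WT, a 3.96-fold rise (adjusted p = 2.56e-07, limma), and 1.77 ± 0.25 in KO, 3.41-fold (adjusted p = 1.58e-06). These SEs rest on a spread shared by all 14 groups, with a pooled SD of 0.32. The oxygen lungs had larger SDs, 0.61 in WT and 0.69 in KO, which the SEs and p-values understate. Without the 17 arrays high in other tissues, which leaves 1 WT oxygen array, the WT value was 1.31 (adjusted p = 0.0111).

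Il1a, the ligand that is active without processing, was at 4.07, 4.12 and 4.30 in WT air and at 4.51, 4.53 and 4.54 in WT oxygen. The WT groups did not overlap, and the rise was 0.36 ± 0.11 (adjusted p = 0.0126, limma), of uncertain size at so low a level. This call ended without WT air P4 replicate 1 (0.32, adjusted p = 0.0649), and without the 17 arrays (0.44, adjusted p = 0.0712). In KO Il1a was at 4.16, 4.24 and 4.08 in air and at 4.20, 4.50 and 4.52 in oxygen. The first of those oxygen lungs lay within the air values, and the difference of 0.24 was not called (adjusted p = 0.0957), though it was without that array (0.34, adjusted p = 0.0297).

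Il1rn, the secreted antagonist that occupies IL-1R1 without signalling, rose beside its competitors. WT lungs were at 7.12, 7.12 and 7.16 in air and at 8.57, 7.98 and 7.94 in oxygen, a difference of 1.03 ± 0.17 (2.04-fold; adjusted p = 2.17e-05, limma). KO lungs were at 7.01, 6.79 and 6.98 in air and at 8.94, 8.25 and 8.03 in oxygen, a difference of 1.48 ± 0.17 (2.79-fold; adjusted p = 4.83e-08). Il1rn has 3 probe sets, and all of them were called higher in both genotypes. The one of middle level gave 1.81 in WT and 2.60 in KO, more than 1.5 times the fold of the one used, and the dimmest gave 0.69 and 0.97.

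Il1r1, the signalling receptor, had the smallest spread for its size of change. It was at 9.01, 8.95 and 8.89 in WT air and at 10.45, 10.23 and 10.55 in WT oxygen, and at 8.91, 8.98 and 9.18 in KO air and 10.53, 10.52 and 10.10 in KO oxygen. The oxygen lungs of each genotype lay close together and far above its air lungs. The rise was 1.46 ± 0.12 in WT (2.75-fold; adjusted p = 2.6e-11, limma) and 1.36 ± 0.12 in KO (2.57-fold; adjusted p = 1.51e-10). A second Il1r1 probe set, with a mean of 3.79, was at -0.01 in WT and 0.11 in KO (adjusted p = 0.952 and 0.341). At the mean of both probe sets the difference was 0.73 in each genotype and remained called.

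Il1r2, the decoy receptor, had the largest change in WT and in KO among the 8 genes, by the probe sets used, and the widest spread. In air at P4 it was at 6.31, 6.05 and 6.28 in WT and at 6.21, 6.30 and 5.95 in KO. After 3 days of oxygen it was at 10.05, 7.48 and 7.97 in WT and at 8.63, 8.40 and 7.21 in KO. Every oxygen lung exceeded every air lung, and a single WT lung stood over 2 log2 units above the other two. The difference was 2.28 ± 0.44 in WT (4.87-fold, adjusted p = 0.000134, limma) and 1.92 ± 0.44 in KO (3.79-fold, adjusted p = 0.000847). These SEs rest on a spread shared by all 14 groups, with a pooled SD of 0.56. The oxygen lungs had larger SDs, 1.36 in WT and 0.76 in KO, which the SEs and p-values understate. Without that lung, WT oxygen P4 replicate 1, the WT difference was 1.51 (adjusted p = 0.00423), and without the 17 arrays it was 1.30 (adjusted p = 0.0159). A WT air lung at P2 (replicate 1) was also apart, at 8.42 beside 6.26 and 6.19.

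Il1rap, the subunit that both IL-1R1 and the IL-33 receptor need for signalling, was called in both genotypes. WT lungs were at 7.48, 7.74 and 7.55 in air and at 8.13, 7.91 and 7.88 in oxygen, a difference of 0.38 ± 0.13 (1.30-fold; adjusted p = 0.0287, limma). That call ended without WT air P4 replicate 1 (0.33, adjusted p = 0.115) or 3 (0.36, adjusted p = 0.0818), or oxygen P4 replicate 1 (0.30, adjusted p = 0.152). It also ended without the 17 arrays (0.30, adjusted p = 0.389). KO lungs were at 7.57, 7.36 and 7.53 in air and at 8.04, 8.41 and 7.90 in oxygen, a difference of 0.62 ± 0.13 (1.54-fold; adjusted p = 0.000405). Among its 4 other probe sets, all dimmer, 0 were called in WT and 1 in KO (0.32, adjusted p = 0.0435), so Il1rap rests on the brightest.

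Il33 was at 9.34, 9.79 and 9.44 in WT air at P4 and at 10.28, 10.28 and 10.29 in WT oxygen. In KO it was at 9.39, 9.26 and 9.25 in air and at 10.72, 10.91 and 10.25 in oxygen. The oxygen lungs lay above the air lungs in both genotypes, and the 3 WT oxygen lungs were nearly identical. The rise was 0.77 ± 0.17 in WT (1.70-fold; adjusted p = 0.000874, limma) and 1.33 ± 0.17 in KO (2.51-fold; adjusted p = 3.28e-07). Without the 17 arrays the WT rise was 0.72 and no longer called (adjusted p = 0.105). Il18 did not differ after 3 days, at 0.01 (95% interval -0.28 to 0.30) in WT and 0.00 (-0.29 to 0.28) in KO.

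**Figure D2:**
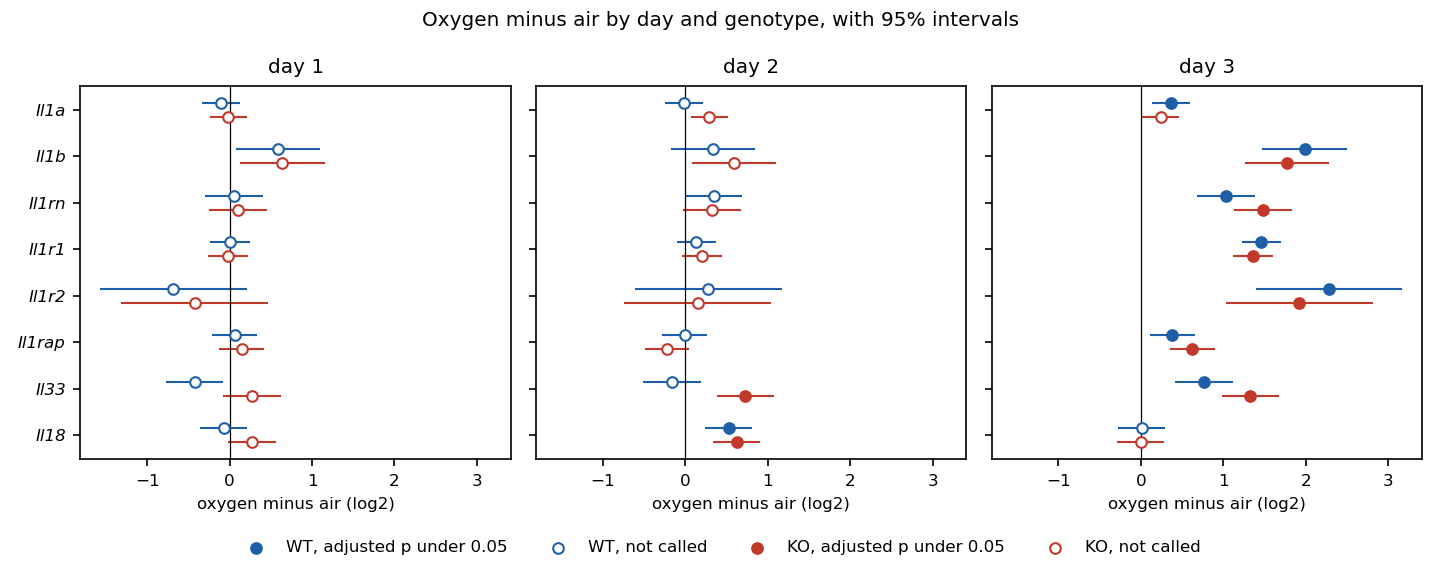
Difference between oxygen and air at the same age (horizontal axis, log2) for each gene after 1, 2 and 3 days, WT in blue and KO in red; points are fitted differences, bars their 95% intervals, and filled points have an adjusted p under 0.05. At 3 days 7 WT and 6 KO points are filled and lie to the right of 0, against 1 and 2 at 2 days and 0 and 0 at 1 day.

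After 1 day 0 of the 8 genes were called by limma in either genotype, where 4.33% of all genes were called in WT and 9.06% in KO. Most P2 air arrays behind these shares were high in other tissues, and the KO share fell sharply with tissue scores in the model. At an unadjusted p under 0.05 there were 2 of the 8 genes in WT and 1 in KO, with Il1b in both. Il1b was at 7.27, 7.07 and 6.61 in WT oxygen and at 6.18, 6.36 and 6.64 in air, a difference of 0.59 (adjusted p = 0.194). In KO it was at 6.55, 6.84 and 7.10 in oxygen and at 6.07, 6.28 and 6.22 in air, a difference of 0.64 (adjusted p = 0.115). The KO groups did not overlap and the WT groups did. Il33 in WT was at -0.43 after 1 day (adjusted p = 0.163), with all oxygen lungs below the air lungs.

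After 2 days the genes called were Il18 in WT and Il18 and Il33 in KO, 1 and 2 of 8 where 5.4% and 12.6% of all genes were called. Il18, the ligand that drives interferon-γ from lymphocytes, was at 8.54, 8.85 and 8.55 in WT air at P3 and at 8.88, 9.48 and 9.16 in oxygen. In KO it was at 8.24, 8.46 and 8.56 in air and at 9.08, 8.69 and 9.35 in oxygen. The lowest oxygen lung stood just above the highest air lung in both genotypes. The differences were 0.53 ± 0.14 (1.44-fold; adjusted p = 0.023, limma) and 0.62 ± 0.14 (1.54-fold; adjusted p = 0.00287). In WT the call ended without air P3 replicate 1 (adjusted p = 0.0968) or 3 (0.107), without oxygen P3 replicate 2 (0.155) or 3 (0.0604), and without the 17 arrays, which leaves 1 air array (0.78, adjusted p = 0.0522). It also ended with a score of macrophage markers in the model (0.21, adjusted p = 0.644).

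Il33 at P3 was at 9.07, 8.96 and 8.94 in KO air and at 9.56, 9.80 and 9.80 in KO oxygen, a rise of 0.73 ± 0.17 (1.66-fold; adjusted p = 0.00408, limma). The KO groups were clearly apart. In WT it was at 9.36, 9.83 and 9.69 in air and at 9.41, 9.29 and 9.71 in oxygen, which overlap, a difference of -0.16 (adjusted p = 0.72). Il1a in KO, at 0.29 on this day (adjusted p = 0.0822), passed without KO air P3 replicate 3 (0.41, adjusted p = 0.0231). For Il33, without the 17 arrays, which leaves 1 KO air array, the KO value was 0.65 (adjusted p = 0.156), and with scores of other tissues in the model 0.61 (adjusted p = 0.0542).

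Whether the response grew from 2 to 3 days was tested as the difference between the oxygen effects, a comparison added after the counts per day had been seen. In WT the effect on day 3 exceeded that on day 2 for Il1b by 1.65 (adjusted p = 0.00242, limma), for Il1r1 by 1.33 (1.99e-06), for Il1r2 by 2.00 (0.0365) and for Il33 by 0.92 (0.0132). That is 4 of 8 genes, where 9.04% of all genes were called. In KO it was larger for Il1b by 1.18 (0.017), Il1r1 by 1.16 (8.53e-06), Il1r2 by 1.77 (0.0393), Il1rn by 1.15 (0.000816) and Il1rap by 0.85 (0.00138), and lower for Il18, by -0.62 (0.0237), where 20.1% of all genes were called. The Il1r2 calls held in 9 of 22 alternatives in WT and 11 of 22 in KO. They ended without any one of 10 of the 12 WT arrays (1.23, adjusted p = 0.169, without WT oxygen P4 replicate 1, and 0.0536 to 0.0769 otherwise) and of 9 of the 12 KO arrays (0.0548 to 0.111). The Il33 call in WT ended without WT air P3 replicate 2 (0.82, adjusted p = 0.0506), and that of Il1b in KO without KO oxygen P4 replicate 2 (0.81, adjusted p = 0.0921). The fall of Il18 in KO ended without air P3 replicate 1 (adjusted p = 0.074), air P4 replicate 1 (0.0519), oxygen P3 replicate 3 (0.106) or oxygen P4 replicate 2 (0.0628). Il33 in KO, at 0.60 (0.0794), passed without KO oxygen P4 replicate 3 (0.79, 0.0178), and Il18 in WT, at -0.52 (0.106), without WT oxygen P3 replicate 1 (-0.66, 0.0377). Without the 17 arrays, which leaves 1 WT air array at P3 and 1 WT oxygen array at P4, 1 WT gene, Il1r1, was called (1.35, adjusted p = 0.00762), with Il33 at 0.59, Il1b at 0.70 and Il1r2 at 0.98. With a score of neutrophil markers in the model the Il1b values were 1.07 in WT and 0.64 in KO, neither called (0.131 and 0.27), and Il33 in WT was at 0.79 (0.144).

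Markers of neutrophils, cells that carry Il1b and Il1r2, moved beside these genes. After 3 days of oxygen 15% of all genes were higher in WT and 17% in KO. Of 13 measured markers 6 were higher in each genotype, at a median of 0.62 in WT and 1.00 in KO. They were S100a8, S100a9, Csf3r, Mmp8, Lcn2 and Stfa2l1, with S100a8 at 1.28 and 1.68. Of the markers of neutrophil granules Elane (-0.12 and 0.01), Mpo (0.20 and 0.14), Ngp (0.61 and 0.14) and Camp (0.35 and 0.15) were not called. The mean score of the list, as a deviation from its median, ran from -0.60 to -0.34 in WT air and from -0.58 to -0.42 in KO air at P4. In oxygen it ran from -0.15 to 0.83 in WT and from 0.22 to 0.76 in KO. The WT oxygen lung with the highest Il1b, Il1r2 and Il1rn values was also the one with the highest neutrophil score, and so was the KO lung with the highest Il1r2 and Il1rn, though not Il1b.

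**Figure D3:**
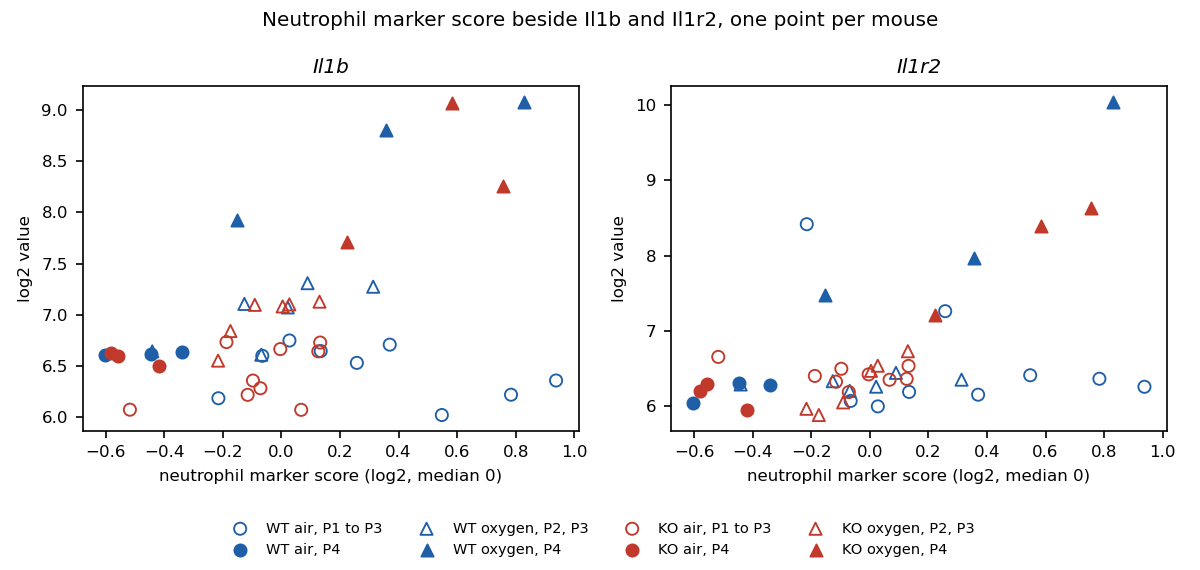
Log2 value of Il1b (left) and Il1r2 (right) against the neutrophil marker score (horizontal axis, mean log2 deviation of 13 markers, median over the arrays at 0), 1 point per mouse; blue is WT, red KO, circles air, triangles oxygen, and filled symbols are P4. The 6 filled triangles are the highest Il1b points. WT air lungs at P1 and P2 with scores up to 0.94 have Il1b values of at most 6.64. All of these air lungs are high in genes of other tissues, and the one at 0.94 has a liver score of 7.4.

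WT air lungs at P1 had scores of 0.26 to 0.78 and Il1b at 6.02 to 6.53. All of these lungs were high in genes of other tissues, and the one at 0.78 had a liver score of 5.1. Whether carried-over tissue raised their neutrophil scores was not tested. The part of neutrophils in the rise of Il1b and the other interleukin-1 system genes in oxygen was not tested. A model with the score fits 1 slope per gene over all arrays, those air lungs included. It cannot separate cell number from RNA per cell. With the score as a covariate, an alternative added after the data were seen, the rise of Il1b was 1.55 in WT (adjusted p = 0.000108, limma) and 1.20 in KO (0.00427). That of Il1r2 was 2.15 (0.00385) and 1.75 (0.0319), that of Il1rn 0.67 and 1.02, and that of Il33 0.66 and 1.20, all still called. Il1a (0.34, adjusted p = 0.0743) and Il1rap (0.27, adjusted p = 0.256) were no longer called in WT, which left 5 genes in WT and 6 in KO.

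Macrophage and monocyte markers also moved, 5 of 13 higher and 1 lower in WT and 7 of 13 higher in KO. Of all genes 15% were higher in WT and 17% in KO. Cd68 rose by 1.35 and 1.91 and Marco by 1.22 and 0.88, while Csf1r was at 0.07 and 0.02 and Siglecf, a marker of alveolar macrophages, was at -0.94 in WT. With that score in the model 7 and 6 genes stayed called. In either direction 27.5% of all genes were called in WT and 31.7% in KO. Of 14 markers of alveolar type II cells 2 were higher and 3 lower in WT, and 4 higher and 1 lower in KO. Sftpc, their defining surfactant gene, stood at -0.01 and -0.12, neither called.

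Whether the genotypes responded differently to oxygen was tested as the difference between their oxygen effects. By limma 0 of the 8 genes were called on any of the 3 days, where 2.69%, 1.76% and 0.561% of all genes were, and on each day Il33 alone had an unadjusted p under 0.05. For Il33 the KO effect exceeded the WT effect by 0.69 on day 1 (95% interval 0.20 to 1.19; adjusted p = 0.118), by 0.89 on day 2 (0.39 to 1.38; 0.0516) and by 0.56 on day 3 (0.07 to 1.06; 0.263). The day 2 value passed the threshold in 6 of 23 alternatives, among them those without WT air P3 replicate 1 (adjusted p = 0.0411) or WT oxygen P3 replicate 3 (0.0415). The day 1 value passed without KO air P2 replicate 2 (0.84, adjusted p = 0.029). On day 3 the 95% intervals of the difference were -0.94 to 0.51 for Il1b, -1.62 to 0.90 for Il1r2, -0.44 to 0.24 for Il1r1 and -0.04 to 0.95 for Il1rn. Il33 means at P2 were 10.05 in WT and 9.20 in KO in air, and 9.62 and 9.47 in oxygen. At P3 they were 9.63 and 8.99 in air, and 9.47 and 9.72 in oxygen. At P2 and P3 the genotypes thus lay further apart in air than in oxygen, and most of these air arrays were high in other tissues.

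In oxygen itself 0 of the 8 genes differed between genotypes over the 3 days by limma, and 1, Il18 (-0.17, adjusted p = 0.187), had an unadjusted p under 0.05. Of all genes 12.5% were called. On the single oxygen days 0 of 8 were called, where 2.96%, 5.13% and 9.82% of all genes were, and at an unadjusted p under 0.05 there was 1, Il18 on day 3 (-0.35, adjusted p = 0.112). With the macrophage score in the model Il1rn was called, at 0.35 (adjusted p = 0.0435) in place of -0.03.

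The rest of the pathway after 3 days of oxygen was described by lists of its genes. Of 16 genes known to be induced by IL-1, 14 were higher in WT and 15 in KO, at a median of 2.38 and 2.19. Of all genes 15% were higher in WT and 17% in KO. The monocyte chemokine Ccl2 rose by 4.56 ± 0.27 (23.6-fold) in WT and 4.48 ± 0.27 (22.2-fold) in KO. The acute-phase gene Saa3 rose by 5.81 and 6.06, Il6 by 5.64 and 4.44, and the adhesion molecule Icam1 by 1.92 and 2.06. Ccl20 (0.16 and 0.11) was called in neither genotype. Other signals than IL-1 induce these genes too, and Lcn2 is also on the neutrophil list.

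Among 19 measured genes that carry the signal, 8 were higher in WT, and in KO 7 were higher and 3 lower. Of all genes 15% were higher in WT and 17% in KO, where 31.7% were called in either direction. Rela, an NF-κB subunit, rose by 1.01 ± 0.07 in WT and 0.68 ± 0.07 in KO. The kinase Map3k8 rose by 1.99 and 0.94, the inhibitor Nfkbia by 1.02 and 0.82, the adaptor Myd88 by 0.91 and 1.10, and Irak3, a brake on the pathway, by 1.31 and 1.47. The 3 genes lower in KO were Ikbkg (-0.38), Mapk8 (-0.27) and Tab1 (-0.25). Of 12 genes for processing and release 2 were higher in WT and 4 in KO, where 15% and 17% of all genes were. Casp4, which senses intracellular endotoxin, rose by 1.80 ± 0.20 and 1.47 ± 0.20, Casp1, the enzyme that cuts the IL-1β and IL-18 precursors, by 0.36 and 0.35, and in KO the inflammasome sensor Nlrp3 by 0.43 and the pore-forming Gsdmd by 0.21.

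Of the other 12 family members measured, 4 were higher in WT and 3 in KO, beside those 15% and 17% of all genes, at a median of 0.06 and 0.09. Il1rl2, the IL-36 receptor, rose by 0.81 ± 0.11 and 0.66 ± 0.11, and Il18rap, the accessory subunit of the IL-18 receptor, by 0.79 ± 0.13 and 0.59 ± 0.13. Il18r1, the ligand-binding subunit of that receptor, rose by 0.50 and 0.37, with groups that overlapped in KO, and Il1f9, an IL-36 ligand, by 0.51 in WT. Of 12 measured genes known to be induced through IL-33 or by type 2 cytokines 1 was higher in WT and 3 in KO, again beside 15% and 17%. They were the chemokine Ccl17 (0.36 and 0.46) in both, with overlapping groups in WT, and Retnla (1.51 ± 0.25) and Ccl22 (0.78 ± 0.28) in KO. Of 12 markers of mast cells and basophils, which carry the IL-33 receptor, Mcpt8 was higher in WT (0.47, adjusted p = 0.0493) and Kit was lower in both, at -1.75 and -1.70, with Hdc at -1.26 in WT. The defining mast cell genes Cpa3 (0.48 and -0.28) and Cma1 (0.39 and -0.18) were not called.

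**Figure D4:**
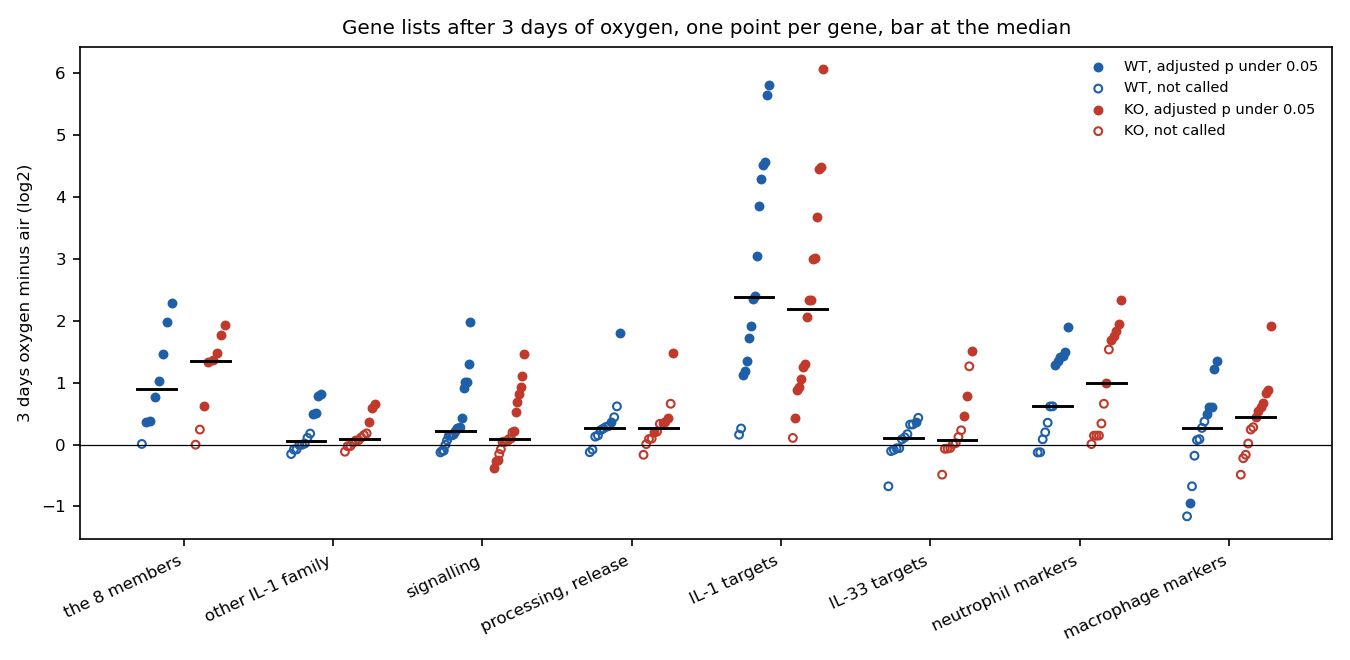
Difference between 3 days of oxygen and air at P4 (vertical axis, log2) for each gene of 8 lists, WT in blue and KO in red; each point is a gene, filled where its adjusted p is under 0.05, and black bars are list medians. The list of IL-1 targets reaches 5.81 in WT and 6.06 in KO, with medians of 2.38 and 2.19, while the other family members and the IL-33 targets have medians of 0.06 to 0.10.

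In air, KO was compared with WT at resting levels. At P1 every WT array and no KO array was high in other tissues. There genotype and carried-over tissue cannot be told apart, and the mean over the ages shares this limit. Over the mean of P1 to P4, 2 of the 8 genes were lower in KO, where 14.4% of all genes were lower and 29% differed in either direction. Il33 was lower by -0.32 ± 0.09 (1.24-fold; adjusted p = 0.0063, limma) and Il18 by -0.29 ± 0.07 (1.22-fold; adjusted p = 0.00243). The Il33 call ended with scores of other tissues in the model (-0.22, adjusted p = 0.255) and with the macrophage score (-0.31, adjusted p = 0.149). The macrophage score also ended the Il18 call and moved its value to -0.07 (adjusted p = 0.697).

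Markers of macrophages moved beside these 2 genes: 9 of 13 were lower in KO air, at a median of -0.33, beside 14.4% of all genes. They included Marco (-0.83), Siglecf (-0.59) and Csf1r (-0.39). Their score ran from -0.22 to 0.42 in WT air lungs and from -0.58 to 0.14 in KO air lungs. Of 14 type II cell markers 6 were higher in KO and the other 8 were not called, with Sftpc at 0.01. In either direction 29% of all genes were called.

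The mean hides that Il33 differed by age. At P1 it was at 9.57, 9.13 and 9.35 in WT and at 9.95, 9.36 and 10.08 in KO, a difference of 0.45 ± 0.17 that was not called (adjusted p = 0.105, limma). Without KO air P1 replicate 2 it was called (0.67, adjusted p = 0.0245). At P2 WT lungs were at 10.00, 10.05 and 10.10 and KO lungs at 9.17, 9.50 and 8.93, a difference of -0.85 ± 0.17 (1.80-fold lower; adjusted p = 0.00116). At P3 WT lungs were at 9.36, 9.83 and 9.69 and KO lungs at 9.07, 8.96 and 8.94, a difference of -0.64 ± 0.17 (1.55-fold lower; adjusted p = 0.00709). The genotypes did not overlap at P2 and P3 and did at P1. At P4 the difference was -0.22 (adjusted p = 0.682). Of all genes 6.78%, 13.1%, 21.6% and 0.726% were called at P1, P2, P3 and P4.

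The P2 call did not hold with scores of other tissues in the model (-0.53, adjusted p = 0.386) or in a fit on the arrays of that comparison alone (-0.85, adjusted p = 0.198). The P3 call did not hold without WT air P3 replicate 2 (-0.53, adjusted p = 0.0529), with the tissue scores (-0.60, adjusted p = 0.0533) or without the 17 arrays, which leaves 1 array a genotype (-0.29, adjusted p = 0.602). For P2 that last fit had no WT array left.

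Il18 was below WT in the mean of KO at each of the 4 ages, by -0.23, -0.36, -0.23 and -0.34, and was called at none of them by itself (lowest adjusted p = 0.0882, limma, at P2, and 0.0202 without WT air P2 replicate 1). Il1rap differed at P1 alone, at 7.91, 8.06 and 7.98 in WT and 7.41, 7.33 and 7.82 in KO (-0.46 ± 0.13, 1.38-fold lower; adjusted p = 0.0298). The groups did not overlap, but the call held in 8 of 20 alternatives. It ended without WT air P1 replicate 2 (adjusted p = 0.109) or 3 (0.0802), or KO air P1 replicate 1 (0.121) or 2 (0.172). A dimmer Il1rap probe set had the opposite sign at P1. Over the mean of the ages Il1rap was at -0.13 and passed without KO air P2 replicate 2 (-0.18, adjusted p = 0.022).

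**Figure D5:**
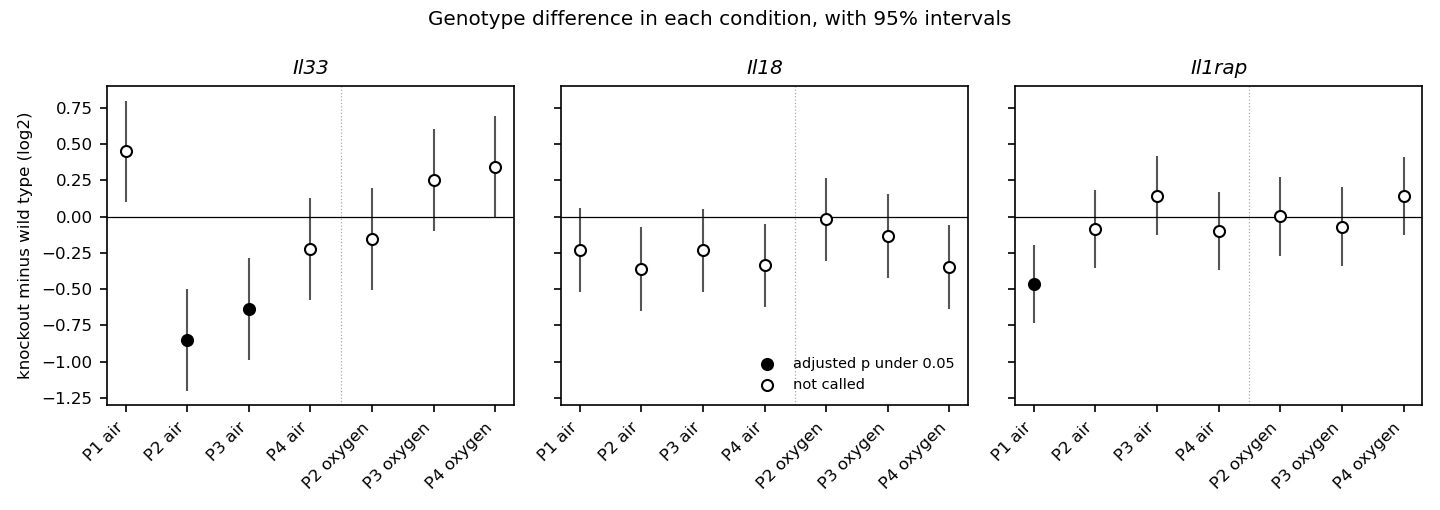
Difference between KO and WT (vertical axis, log2) for Il33, Il18 and Il1rap in the 4 air and 3 oxygen conditions, with 95% intervals; filled points have an adjusted p under 0.05. Il33 is at 0.45 at P1 in air, -0.85 at P2 and -0.64 at P3, and between -0.22 and 0.34 in the other conditions.

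Between P1 and P4 in air 2 of the 8 genes fell in WT and 2 in KO, where 11.3% and 13.5% of all genes fell and 22.4% and 21.6% changed in either direction. Il1r1 fell in both genotypes, from 9.53, 9.23 and 9.31 to 9.01, 8.95 and 8.89 in WT (-0.40 ± 0.12; adjusted p = 0.011, limma) and from 9.38, 9.54 and 9.28 to 8.91, 8.98 and 9.18 in KO (-0.38 ± 0.12; adjusted p = 0.0199). In both, the P1 lungs were all above the P4 lungs. The WT call ended without P1 replicate 1 (adjusted p = 0.0816), and the KO call without P1 replicate 2 (0.109) or P4 replicate 1 (0.0991) or 2 (0.0614), and with the tissue scores (0.0935). Il1rap fell in WT from P1 to each later age, by -0.44 at P2, -0.38 at P3 and -0.39 at P4 (adjusted p = 0.0211, 0.0417 and 0.0294). These calls held in 11, 8 and 11 of 20 alternatives each. For P4 they ended without WT air P1 replicate 2 (adjusted p = 0.105) or 3 (0.0698), or P4 replicate 1 (0.12) or 3 (0.0872). For P2 they ended without P1 replicates 2 or 3 or P2 replicates 1 or 2 (0.0575 to 0.0818), and for P3 without P1 replicates 1, 2 or 3 or P3 replicates 2 or 3 (0.0532 to 0.191). These Il1rap values are those of its brightest probe set, and a dimmer one was higher than at P1 at each of these ages. Both Il1r1 and Il1rap lost the WT call with the neutrophil score in the model (0.113 and 0.412), where Il1b passed instead (0.90, adjusted p = 0.047, against 0.36 and 0.364). In all, 6 of 13 neutrophil markers fell from P1 to P4 in WT and 1 in KO, beside 11.3% and 13.5% of all genes.

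Between P1 and P2 Il33 went in opposite directions in the 2 genotypes. It rose in WT by 0.70 ± 0.17 (1.63-fold; adjusted p = 0.0047, limma) and fell in KO by -0.60 ± 0.17 (1.51-fold; adjusted p = 0.0187). All WT air arrays at P1 and P2 were high in other tissues. The WT mean was 9.35 at P1, 9.63 at P3 and 9.52 at P4, and Il33 was not called at P3 or P4 against P1 in WT. In KO Il33 was -0.81 at P3 (adjusted p = 0.00169) and -0.50 at P4 (adjusted p = 0.0351) relative to P1. The change from P1 was compared between the genotypes directly, a test added after these values had been seen. By limma 1 of the 8 genes was called at P2 (Il33), 2 at P3 (Il33 and Il1rap) and 0 at P4, where 2.65%, 12.6% and 0.0275% of all genes were, with 1 (Il33) at an unadjusted p under 0.05 at P4. KO lungs at P1 overlapped those at P2 and P4 through P1 replicate 2 (9.36). Of all genes 14.5% were called from P1 to P2 and 20.6% to P3 in WT, and 13.3% and 12.8% in KO. The KO fall to P2 ended without P1 replicate 1 (adjusted p = 0.0847) or 3 (0.114), or P2 replicate 1 (0.0846) or 3 (0.109), and was -0.16 with the tissue scores (adjusted p = 0.892). The fall to P4 ended without any one of P1 replicates 1 and 3 and P4 replicates 1, 2 and 3 (adjusted p = 0.0519 to 0.19). Without the 17 arrays, which leaves 1 KO air array at P2 and 1 at P3, the falls in KO were -0.30 to P2, -0.73 to P3 and -0.50 to P4, none of them called (0.662, 0.101 and 0.0575).

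Beyond the 8 genes, the pathway lists showed some differences between genotypes. Over the oxygen days 12.5% of all genes were called between the genotypes in either direction. Of the 16 IL-1 targets 6 were lower in KO, at a median of -0.29 over the list. They were Il6 (-0.72), Csf3 (-0.62), Ptgs2 (-0.81), the neutrophil chemokine Cxcl5 (-1.14 ± 0.21; adjusted p = 0.000359, limma), Nfkbiz, a nuclear partner of NF-κB (-0.50 ± 0.11; adjusted p = 0.00223), and the deubiquitinase Tnfaip3 (-0.38 ± 0.11; adjusted p = 0.0169). In air Nfkbiz was lower too (-0.37) and Icam1 higher (0.21). Casp1 was lower in KO in air (-0.23 ± 0.05) and in oxygen (-0.45 ± 0.06; adjusted p = 7.48e-06), Nlrp3 in air (-0.21), Casp4 in oxygen (-0.37), and the protease Capn1 was higher in both (0.30 and 0.21). Ikbkg, the regulatory subunit of the IκB kinase, was lower in oxygen (-0.51 ± 0.04; adjusted p = 1.16e-10). Among IL-33 targets Retnla was lower in KO in air (-0.84 ± 0.12; adjusted p = 7.58e-06) and in oxygen (-0.43), and Chil3, which is also on the macrophage list, in air (-0.87 ± 0.21).

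From P1 to P4 in air 5 of the 19 signalling genes were lower and 1 higher in WT, and 4 were lower in KO, where 11.3% and 13.5% of all genes were lower. Nfkbia fell by -0.57 and -0.38 and Ikbkg by -0.41 and -0.40. Icam1 fell by -0.80 ± 0.14 in WT and -0.93 ± 0.14 in KO, Il18r1 by -0.51 and -0.85, and Sigirr, an inhibitory receptor of the family, by -0.32 and -0.44. Chil3 fell by -1.62 ± 0.41 and -1.69 ± 0.41, and Retnla by -1.19 in KO.

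Over the 14 group means, Il1b, Il1r1, Il1r2 and Il1rn ran in parallel, with Pearson's r between 0.83 and 0.94. Il33 had r = 0.87 with Il1rn and 0.78 with Il1b, and Il18 stood between -0.16 and 0.17 with each of the others. Outside the family the genes most like Il33 were Hcar2 (r = 0.92), Cd302 (0.89) and Krt23 (0.88). Those most like Il1b were Wsb2, Tnfrsf12a and Lif (all 0.98), and those most like Il1r2 were Sbno2 (0.96), Rin1 and Prss22 (both 0.95). These values are descriptions: the 14 points are shared by all genes, and the 2 P4 oxygen groups lie far from the rest.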

How the data were processed

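Whole-lung RNA of 42 newborn mice was hybridised to Affymetrix 3' expression arrays, per the labels' protocols. The deposited table holds 1 log2 value per probe set and array. GCOS and RMA are named in the submitters' processing notes, without versions. RMA removes background, gives all arrays 1 distribution and combines the probes of a set, so a shift shared by most genes would not show. The deposited log2 values were used unchanged.

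Of 45101 probe sets 34958 carry 1 symbol in the annotation, which gave 18194 genes by the probe set of highest mean. limma 3.58.1 (R 4.3.3) fitted 1 mean per group, 14 in all, with 28 residual degrees of freedom, 31.4 after moderation. A gene was called at a two-sided adjusted p under 0.05. There were 29 contrasts. For arrays, their number limits the precision. On simulated data for 3 days of oxygen in WT, with 18194 genes, 77.6% of changes of 0.5, 94% of 1 and 97% of 2 log2 units were called, with 15 false calls.

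Named are the 9 genes, up to 3 called genes per pathway list with the smallest p in the leading comparisons, and the 3 genes most like Il33, Il1b and Il1r2; other list members named (such as Ccl20, Il18r1, Csf3, Ptgs2 and cell markers) were picked after their values were seen. The genes and lists were chosen with earlier results of these data known. Alternatives were cyclic loess, variance models, array weights, a filter on dim genes, other probe sets, fewer arrays, tissue and cell scores, a replicate block and leaving out each array; the neutrophil and macrophage scores, and the tests of a difference between 2 ages' genotype effects or 2 days' oxygen effects, were chosen after the data were seen. Il1rl1 is not analysed here. The labels give 1 mouse per array and no litter, so p-values measure the spread between these mice, pooled over the 14 groups. They understate it in more variable groups, such as the P4 oxygen groups of Il1b, Il1r2 and Il1rn.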

Additional observations from a re-analysis of the deposited data

Results flagged for a closer look

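The change of Il33 from P1 to later ages in air differed between the genotypes. From P1 to P2 the change in KO was lower than that in WT by -1.30 on the log2 scale (adjusted p = 0.00434, limma), and from P1 to P3 by -1.09 (adjusted p = 0.00264). WT lungs went from 9.13 to 9.57 at P1 to 10.00 to 10.10 at P2, and KO lungs from 9.36 to 10.08 to 8.93 to 9.50. These tests were added after the values of Il33 had been seen, and 2.65% and 12.6% of all genes were called in them. The P2 value was -0.95 with scores of other tissues in the model (adjusted p = 0.107) and was not called in a fit on its own arrays alone (adjusted p = 0.27). The P3 value was called in 22 of 22 alternatives, with -1.02 under the tissue scores (adjusted p = 0.0153). All WT air arrays at P1 and P2 and 2 of the 3 KO air arrays at P2 were high in genes of other tissues. Thymocyte scores at P2 ran from 1.06 to 3.68 in KO air and from 0.06 to 0.27 in WT air. The part of these tissues in the P2 and P3 values was not tested beyond the model with tissue scores.

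For Il1rap the change from P1 to P3 differed the other way, by 0.61 (adjusted p = 0.0296, limma), with WT lungs at 7.91 to 8.06 at P1 and 7.44 to 7.75 at P3, and KO lungs at 7.33 to 7.82 and 7.69 to 7.79. It held in 14 of 26 alternatives. The call ended without any one of WT air P1 replicates 2 and 3, WT air P3 replicate 3, KO air P1 replicates 1 and 2 and KO air P3 replicates 2 and 3 (adjusted p = 0.0521 to 0.0953). Dimmer Il1rap probe sets gave the opposite sign.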

How the results depend on the processing

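Each number of genes called out of 8 is given first as reported and then under the alternative that moved it. P4 against P1 in WT went from 2 to 1 with the mean of all probe sets and with the neutrophil score, where the 1 was Il1b in place of Il1r1 and Il1rap. In KO it went from 2 to 1 with cyclic loess and without the 17 arrays high in other tissues, and to 0 with the tissue scores and with the neutrophil score. KO against WT in air went from 2 to 1 with the tissue scores and 0 with the macrophage score, and in oxygen from 0 to 1 with array weights and with the macrophage score. Oxygen in WT on day 2 went from 1 to 2 with array weights and the mean of all probe sets, and to 0 on its own arrays alone, without the 17 arrays and with the macrophage score; on day 3 it went from 7 to 4 without the 17 arrays and to 5 with the neutrophil score. Oxygen in KO on day 2 went from 2 to 1 on its own arrays alone, with the tissue scores and without the 17 arrays. The genotype difference in the oxygen effect went from 0 to 1 on day 1 with array weights, and on day 2 with an intensity trend, array weights, the upper 60 percent of genes and its own arrays alone. Without the 17 arrays, contrasts with WT air at P1 or P2 could not be fitted. Leaving out 1 array at a time gave 1 to 2 genes for P4 against P1 in WT and 0 to 1 in KO, 2 to 3 for KO against WT in air, 0 to 1 for oxygen in WT on day 2 and 5 to 7 on day 3, 2 to 3 in KO on day 2 and 6 to 7 on day 3, and 0 to 1 for the genotype difference on days 1 and 2.

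Values that changed sign were mostly those of dimmer probe sets. The second Il1r1 probe set gave -0.011 for day 3 in WT and -0.0095 for day 3 against day 2. Among the other Il1rap probe sets, 1 gave 0.0094 and 0.083 for P4 and P3 against P1 in WT, -0.0091 for day 3 in WT, 0.17 for KO against WT at P1 and -0.21 for the genotype difference at P3. Another gave 0.17, 0.70 and 0.34 for P4, P2 and P3 against P1 in WT and -0.41 for the genotype difference at P3, and a further one -0.042 for day 3 in WT. Il1rn in oxygen turned to 0.35 with the macrophage score.

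Replicate numbers did not pair the arrays: deviations of same-numbered arrays correlated from -0.48 to 0.69, with medians of 0.02, -0.01 and 0.02, and 13 of 42 arrays correlated best with their own number. With the replicate number as a block 7 genes were called on day 3 in WT and 6 in KO, and no call of the 8 genes changed. Counts over all genes moved by over 1.5 times with array weights, among others (982 to 3739 for oxygen in WT on day 2, 320 to 2084 for the genotype difference that day), on a contrast's own arrays alone (788 to 12 and 1648 to 4 for day 1 in WT and KO, 489 to 5 for the genotype difference), with the tissue scores (5271 to 2992 for KO against WT in air, 1648 to 12 for day 1 in KO) and without the 17 arrays (5010 to 2357 for day 3 in WT). The causes were not tested.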
